A study of Homo sapiens with 4 samples.

Results

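Cyclin-dependent kinase (CDK) inhibitors are proteins that hold back the kinases of the cell cycle, and the 8 genes described here are CDKN1A, CDKN1B and CDKN1C of the CIP/KIP family, CDKN2A, CDKN2B, CDKN2C and CDKN2D of the INK4 family, and CDKN3. They were chosen by gene symbol as 8 of the 23362 entries of a gene expression table, and 7 of them reached an FPKM (a count of RNA fragments already scaled for transcript length and library size) of 1 or more in 1 of the libraries or several, as did 11769 entries in all. The RNAseq compared MKN28, a human gastric adenocarcinoma cell line, in 4 groups of 1 library each. Each line carried a retroviral tet-on construct, which is switched on by doxycycline, for luciferase (Luc, the control), wild-type KIAA1324 (WT), a KIAA1324 with glutamine in place of asparagine at its putative N-glycosylation sites (3NQ), or a KIAA1324 without the transmembrane domain (ΔTM). KIAA1324 is a transmembrane glycoprotein that the study examined as a tumor suppressor, and the comparison asks whether its effect on these genes requires the glycosylated form. The sources used here do not say for how long the cells sequenced were kept in doxycycline. With 1 library a group the values used here hold no replicate check of any difference below, so no p-value was computed. A lower FPKM cannot tell fewer expressing cells from less RNA per cell. The paper describes CDKN1A and CDKN1C as raised in WT and not in the mutants. It also measured both by qRT-PCR, which is not part of the values here.

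The FPKM of KIAA1324 was 2.86 in Luc but 11185 in WT and 8197 in 3NQ, and it was listed at 0 in the ΔTM-labelled library. The WT and 3NQ libraries therefore held KIAA1324 RNA far above Luc, but an FPKM of the gene cannot tell the wild-type from the 3NQ sequence. For the ΔTM label this gene gave no check, and every direction drawn from the ΔTM-labelled library carries this limit. All 6 epithelial markers were abundant, for instance EPCAM at an FPKM of 345 to 391. Of 8 markers of blood, vessel and stromal cells, PECAM1 was not analysed here, PTPRC, CD3E, VWF, COL1A2 and DCN were under an FPKM of 1 in each library, COL1A1 was at 12.1 to 15.3 and CD68 at 4.44 to 5.84. The summed FPKM ranged from 560540 to 585104, and the depth of the libraries is unknown because the table holds no counts.

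As background, the CIP/KIP proteins p21 (CDKN1A), p27 (CDKN1B) and p57 (CDKN1C) bind cyclin-CDK complexes and inhibit CDK2 and CDK1, while they also help cyclin D to assemble with CDK4 and CDK6. The INK4 proteins p16 (CDKN2A), p15 (CDKN2B), p18 (CDKN2C) and p19 (CDKN2D) bind CDK4 and CDK6 alone and keep cyclin D away from them, so that RB stays in the form that represses E2F. CDKN3 is of another kind, a phosphatase that removes the activating phosphate from CDK2. CDKN2A is often silenced or deleted in gastric and other carcinomas.

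The genes lie on 7 chromosomes of GRCh37, the build of the table. CDKN1A (ENSG00000124762) is at chr6:36644305-36655116 on the plus strand, CDKN1B (ENSG00000111276) at chr12:12867992-12875305 on the plus strand, and CDKN1C (ENSG00000129757) at chr11:2904443-2907111 on the minus strand. Of the INK4 genes, CDKN2A (ENSG00000147889, chr9:21967751-21995300) and CDKN2B (ENSG00000147883, chr9:22002902-22009362) are neighbours on the minus strand, CDKN2C (ENSG00000123080) is at chr1:51426417-51440305 on the plus strand, and CDKN2D (ENSG00000129355) at chr19:10677138-10679735 on the minus strand. CDKN3 (ENSG00000100526) is at chr14:54863567-54886936 on the plus strand.

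The start regions of the 3 members that changed in WT are shown because CDKN1A moved in the other direction from CDKN2C and CDKN3. They are RefSeq sequences on GRCh38.p14, all on the plus strand and 5′ to 3′, from the 250 bases before a start. CDKN1A is chr6:36678464-36678713, and CDKN2C is the window of the start farthest downstream of its 3, chr1:50969995-50970244. That window was not found in the exon sequence of any annotated transcript of the gene. It lies downstream of the other CDKN2C starts, so transcripts from those can span it as an intron. CDKN3 is the 92 bases that precede every annotated transcript, chr14:54396757-54396848. Capitals mark the words GGGCGG (Sp1), CCAAT, and TTTGAA or TTCGAA (the CHR, an element of genes expressed late in the cell cycle), each searched on both strands, so that a word of the other strand appears as its reverse complement.
CDKN1A: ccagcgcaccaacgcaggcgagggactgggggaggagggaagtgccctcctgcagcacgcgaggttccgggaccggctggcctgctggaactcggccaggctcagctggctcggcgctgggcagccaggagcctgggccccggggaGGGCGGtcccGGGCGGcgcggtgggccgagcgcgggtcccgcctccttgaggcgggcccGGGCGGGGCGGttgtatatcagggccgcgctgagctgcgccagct
CDKN2C: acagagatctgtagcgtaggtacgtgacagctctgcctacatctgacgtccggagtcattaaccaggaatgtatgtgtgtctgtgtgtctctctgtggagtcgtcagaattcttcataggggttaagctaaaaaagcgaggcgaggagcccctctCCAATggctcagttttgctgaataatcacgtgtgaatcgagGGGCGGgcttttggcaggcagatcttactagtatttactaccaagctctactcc
CDKN3: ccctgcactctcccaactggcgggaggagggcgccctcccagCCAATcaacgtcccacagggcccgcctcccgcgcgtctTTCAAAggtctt
The CDKN1A window held 4 GGGCGG words, a pair of them overlapping, and neither of the other words. The CDKN3 window of 250 bases held 1 CHR word, 170 bases before the start, with 2 CCAAT words and no GGGCGG. Among all 35116 windows of this length, 42.6% held GGGCGG, 32.0% CCAAT and 14.3% a CHR word. An E2F word (TTTCCCGC, TTTGGCGC, TTTCGCGC or TTTGCCGC), present in 2.79% of all windows, was in none of the 10 windows found for 7 of the 8 members. The 3 windows of CDKN2C differed, with no word in the first, 5 GGGCGG in the next and 1 CCAAT with 1 GGGCGG in the last. A match of letters is a description of the sequence only.

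CDKN1A was the inhibitor that rose with wild-type KIAA1324. Its FPKM was 48.8 in Luc and 83.6 in WT, with 56.4 in 3NQ and 46.6 in the ΔTM-labelled library. The WT library stood above the other 3, which lay close together. On the scale of log2(FPKM + 1), used for all ratios here and understating the change of low genes, WT was 0.76 above Luc (1.70-fold), and 187 of the 11769 genes, 1.59%, had a ratio as high or higher. WT was also higher than the ΔTM-labelled library, by 0.83 (1.78-fold). Against 3NQ the ratio was 0.56 (1.47-fold), just short of the 1.5-fold at which a gene is called changed, and 3.38% of genes had a ratio at least as high. In 3NQ the gene was at 0.21 and in the ΔTM-labelled library at −0.064 relative to Luc.

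The other CIP/KIP genes did not pass the threshold in any comparison. CDKN1B was expressed at FPKM values of 38.0 in Luc and 33.4 in WT, with 29.8 in 3NQ and 34.4 in the ΔTM-labelled library, with log2 ratios to Luc of −0.18, −0.34 and −0.14. CDKN1C, the imprinted member of the family, was barely expressed, at 0.768, 1.22, 0.726 and 0.826 in the same order. It passed the filter through the WT library alone, so that its place as highest in WT was fixed by the filter. Its WT to Luc ratio was 0.33 with the pseudocount of 1, whereas the plain ratio of FPKM was 1.59, and with a pseudocount of 0.1 the log2 value became 0.60, past the threshold, so its call rests on the pseudocount.

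CDKN2C was the INK4 gene that fell. Its FPKM was 10.5 in Luc and 5.06 in WT, with 6.82 in 3NQ and 8.32 in the ΔTM-labelled library. WT was the lowest library and Luc the highest. The log2 ratio to Luc was −0.92 in WT (1.90-fold lower), and 86 genes, 0.731% of those examined, were as low or lower. WT was also lower than the ΔTM-labelled library, by a log2 ratio of −0.62 (1.54-fold) that a pseudocount of 5 brought to −0.41, short of the threshold, while the ratio to 3NQ was −0.37. The 3NQ library was at −0.56 relative to Luc (1.47-fold lower), short of the threshold with the pseudocount of 1 and past it at −0.62 with one of 0.1, and the ΔTM-labelled library at −0.30. The WT value differed from both KIAA1324-labelled mutants by less than from Luc: against their mean log2 level it was −0.49, no longer past the threshold.

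CDKN2A and CDKN2D had lower values than Luc in each of the other 3 libraries without passing the threshold. CDKN2A, which encodes p16 and, from another reading frame, p14ARF as 1 entry of the table, was at FPKM values of 28.0 in Luc and 19.8 in WT, with 25.0 in 3NQ and 25.1 in the ΔTM-labelled library. Its log2 ratio to Luc was −0.48 in WT, and −0.15 in each mutant library. WT lay below the other 3 libraries, by −0.32 against 3NQ and −0.33 against the ΔTM-labelled library. CDKN2D was at 7.76, 5.57, 4.91 and 7.04, and for this gene 3NQ and not WT was the lowest, with log2 ratios to Luc of −0.42 in WT and −0.57 in 3NQ, and −0.12 in the ΔTM-labelled library. With a pseudocount of 0.1 the 3NQ ratio became −0.65, past the threshold. CDKN2B was listed at 0 in all 4 libraries, which can be a failed estimate, and no ratio is given.

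CDKN3 fell in WT. Its FPKM was 45.2 in Luc and 29.2 in WT, with 34.2 in 3NQ and 41.8 in the ΔTM-labelled library. The 4 libraries had the same order as for CDKN2A and CDKN2C, from Luc at the top to WT at the bottom. The log2 ratio to Luc was −0.61 in WT (1.53-fold lower), a value that 2.84% of genes had or fell below, −0.39 in 3NQ and −0.11 in the ΔTM-labelled library. WT against 3NQ was −0.22 and WT against the ΔTM-labelled library −0.50. The call is close to the threshold, since a pseudocount of 5 gave −0.55 and the mean of both mutant libraries as the control gave −0.36.

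**Figure D1:**
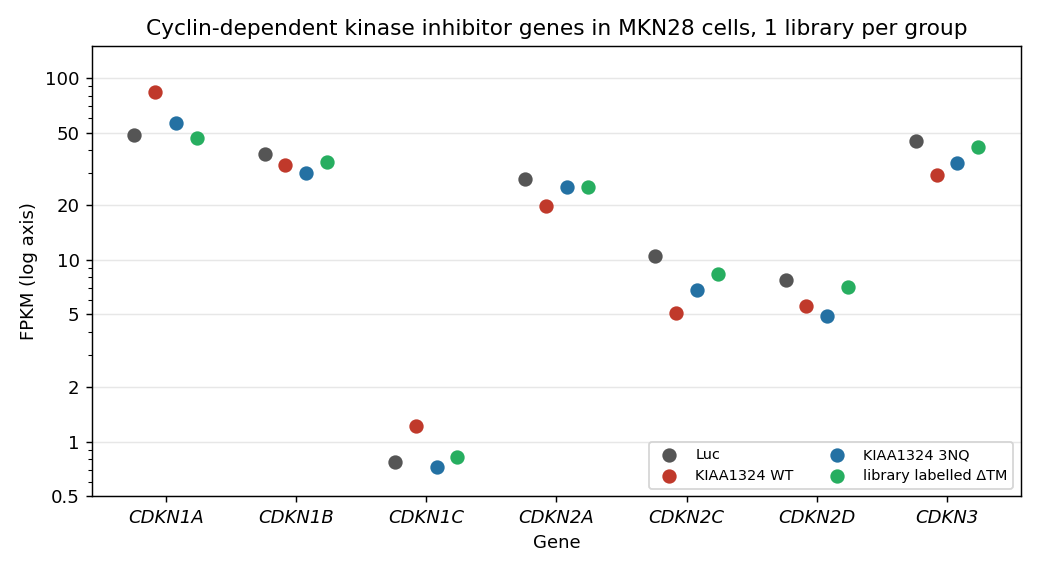
FPKM on a log axis of the 7 inhibitor genes above 0 in each library, with 1 point for each of the 4 libraries and no error bar because there was 1 library a group. The WT point is the highest for CDKN1A and CDKN1C and the lowest for CDKN2A, CDKN2C and CDKN3, and CDKN2B, listed at 0, is not drawn. CDKN1C passed the filter through WT alone, so that its highest point was fixed by the filter.

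Counted together, 1 of the 7 genes that passed the filter was higher in WT than in Luc, CDKN1A, and 2 were lower, CDKN2C and CDKN3. Among all 11769 genes, 3.36% were higher and 3.34% were lower in that comparison. With an FPKM of 5 or more in any library required, the same 3 calls stood among 6 inhibitor genes, against 2.97% higher and 2.69% lower of 9403 genes. In 3NQ against Luc no inhibitor gene was called in either direction, where 1.77% of all genes were higher and 2.57% lower. That 0 rests on the pseudocount, since 2 members, CDKN2C and CDKN2D, were called lower with one of 0.1. The share of all genes called with that pseudocount was not computed. The ΔTM-labelled library against Luc also had 0 calls, beside 1.54% of all genes higher and 1.57% lower.

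These 3 comparisons share the Luc library, so a value of Luc that is off by chance moves all of them. Between the other libraries, WT against the ΔTM-labelled library had CDKN1A higher and CDKN2C lower, with 4.25% of all genes higher and 2.91% lower. For WT against 3NQ the counts were 0 and 0, with 2.89% and 1.58% of all genes, and for 3NQ against the ΔTM-labelled library they were 0 and 0, with 1.46% and 1.88%. Rescaling the libraries by the median of ratios left the inhibitor calls as they were. It moved the higher calls among all changed genes from 59.3% to 48.3% for WT against the ΔTM-labelled library, and from 49.5% to 59.9% for the ΔTM-labelled library against Luc.

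Below the threshold, most inhibitor genes had lower values than in Luc. The median log2 ratio of the 6 that passed the filter other than CDKN1C was −0.45 in WT and −0.37 in 3NQ, and −0.13 in the ΔTM-labelled library, where the medians of all genes were −0.0049, −0.038 and −0.060. Of these 6, 5 were below Luc in WT, 5 in 3NQ and all 6 in the ΔTM-labelled library, beside 50.9%, 57% and 63% of all genes. Luc was the highest of the 4 libraries for 5 of the 6 and for 30.6% of all genes. WT was the highest for CDKN1A alone among them, as it was for 33.6% of all genes, and the lowest for 3, as for 26.7% of all genes. The full order Luc, ΔTM-labelled library, 3NQ, WT from high to low was found for the same 3, CDKN2A, CDKN2C and CDKN3, and for 8.21% of all genes. These counts all share the Luc library.

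**Figure D2:**
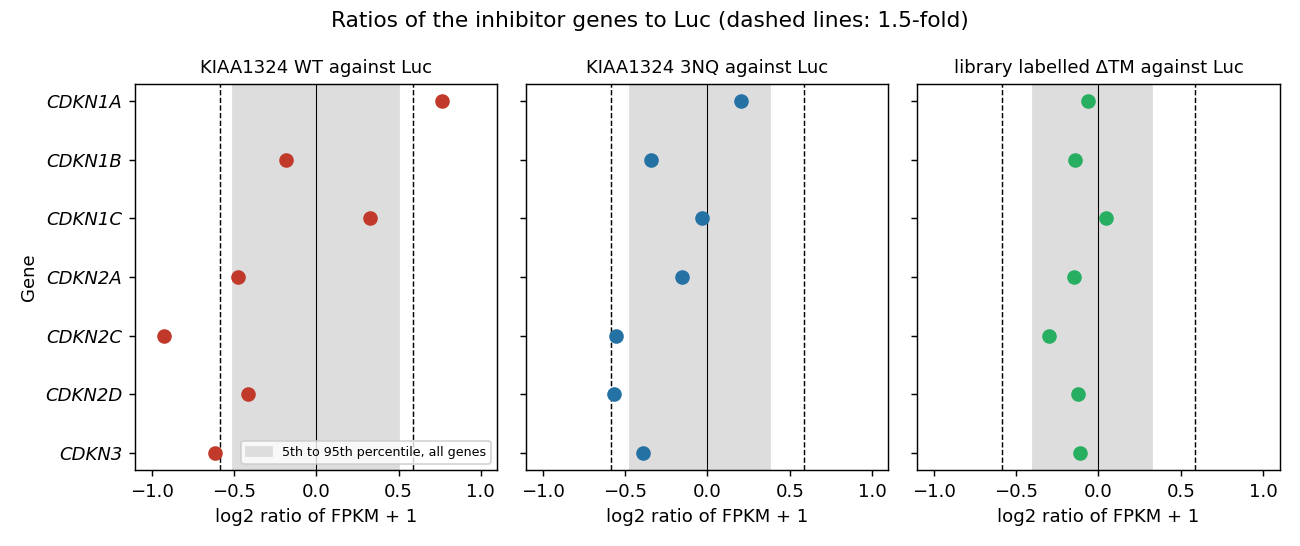
Log2 ratios of FPKM + 1 to Luc for the 7 inhibitor genes that passed the filter, in WT, 3NQ and the ΔTM-labelled library, with dashed lines at 1.5-fold and a grey band from the 5th to the 95th percentile of all genes that passed the filter. In WT the value of CDKN1A lies above the upper line at 0.76 and those of CDKN2C and CDKN3 lie below the lower line at −0.92 and −0.61, while no value of the other libraries crosses a line.

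The balance within each library, where FPKM are compared per length, shifted toward CDKN1A in WT. CDKN1A made up 55.7% of the summed CIP/KIP FPKM in Luc and 70.7% in WT, with 64.9% in 3NQ and 57.0% in the ΔTM-labelled library. The ratio of CDKN1A to CDKN1B was 1.28 in Luc and 2.50 in WT, with 1.89 in 3NQ and 1.36 in the ΔTM-labelled library. The RNA of p21 was thus above that of p27 in every library, least in Luc and most in WT. The summed CIP/KIP FPKM was 87.6, 118, 87.0 and 81.8, and WT alone stood out. For the INK4 family the sum went the other way, from 46.2 in Luc to 30.4 in WT, with 36.8 in 3NQ and 40.5 in the ΔTM-labelled library. The CDKN2A entry was the largest part of that sum in every library, with 60.5% to 68.1%. The share of CDKN2C was 22.7% in Luc and 16.6% in WT. Because the CDKN2A entry holds p14ARF as well as p16, the p16 part of the sum is unknown.

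Set against each other, CDKN1A and CDKN3 were level in Luc (a ratio of 1.08) and in the ΔTM-labelled library (1.12), and 2.86 in WT and 1.65 in 3NQ. The ratio of CDKN1A to CDKN2C was 4.65 in Luc and 16.5 in WT, with 8.28 in 3NQ and 5.61 in the ΔTM-labelled library. For both ratios 3NQ lay between WT and the remaining pair of libraries.

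**Figure D3:**
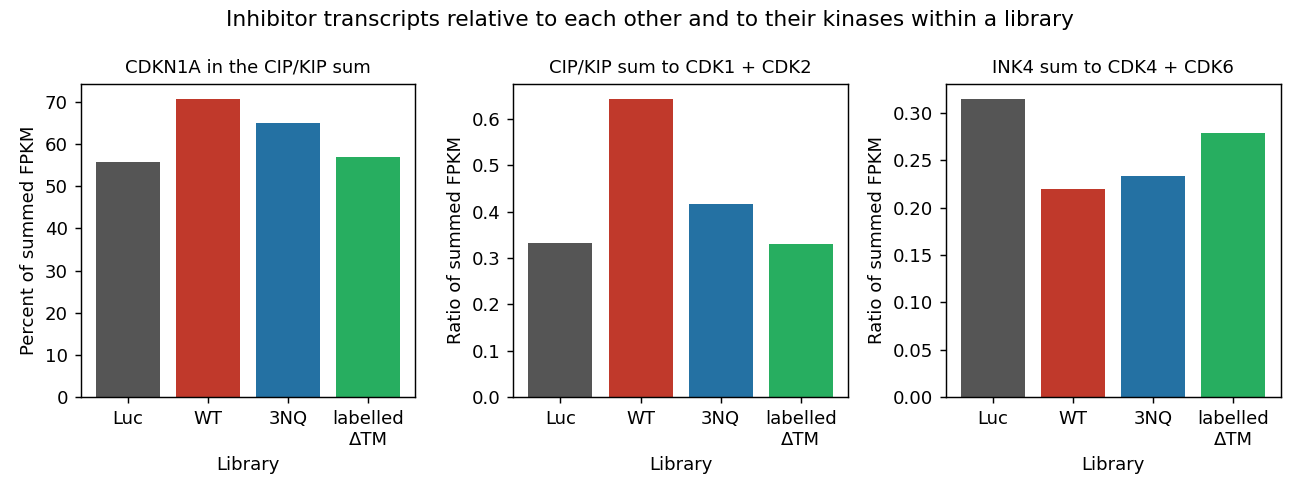
Bars, 1 for each of the 4 libraries, of the CDKN1A percentage of the CIP/KIP FPKM sum (left), the ratio of that sum to CDK1 and CDK2 (middle) and the ratio of the INK4 sum to CDK4 and CDK6 (right), with no error bars. The CDKN1A share of the CIP/KIP sum runs from 55.7% in Luc to 70.7% in WT, and the WT bar is the highest in the middle panel (0.643) and the lowest in the right one (0.220). The INK4 sum includes any p14ARF RNA in the CDKN2A entry.

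The kinases and cyclins that the inhibitors bind were mostly lower than in Luc as well. CDK4 and CDK6, the targets of the INK4 proteins, had a summed FPKM of 147 in Luc and 138 in WT, with 158 in 3NQ and 145 in the ΔTM-labelled library, a narrow range. The INK4 sum, which includes any p14ARF RNA in the CDKN2A entry, was 0.315, 0.220, 0.233 and 0.279 of that kinase sum in the same order. CDK1 and CDK2 summed to 264 in Luc and 184 in WT, with 209 in 3NQ and 247 in the ΔTM-labelled library. The CIP/KIP sum relative to CDK1 and CDK2 was therefore 0.332 in Luc and 0.643 in WT, with 0.416 in 3NQ and 0.331 in the ΔTM-labelled library, with both terms of the ratio moving. Of 12 kinases and cyclins that passed the filter out of 13, 2 were called lower in WT against Luc, CDK1 (−0.67) and CCNB2 (−0.66). None was higher, and the median was −0.32. Of all genes, 3.34% were lower and 3.36% higher in that comparison. In 3NQ CCND2, a D-type cyclin, was called higher than in Luc at 0.60, from an FPKM of 0.698 to 1.57. It was also the gene called lower in WT against 3NQ (−0.60). Of all genes, 1.77% were higher in 3NQ against Luc and 1.58% lower in WT against 3NQ. CCND2 passed the filter through the 3NQ library alone, so that its place as highest in 3NQ was fixed by the filter.

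Among 15 genes that act on the turnover of the inhibitor proteins, 1 was called in WT against Luc. Of all genes, 3.36% were higher and 3.34% lower. SKP2, which marks p27 and p21 for degradation, had FPKM values of 38.1 in Luc and 22.3 in WT, with 30.7 in 3NQ and 33.7 in the ΔTM-labelled library, a log2 ratio of −0.75 in WT. Its cofactor CKS1B was at −0.53, and DTL and CDC20, the substrate receptors of other ligases that act on p21, were at −0.58 and −0.53, short of the threshold. MDM2, a ubiquitin ligase that can promote the degradation of p21, was at 65.5, 84.6, 51.8 and 55.3. It was called higher in WT against 3NQ (0.70) and against the ΔTM-labelled library (0.61), and was at 0.36 against Luc. The list's median was −0.087 in WT.

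Known regulators of the inhibitor genes moved in both directions. Of 28 that passed the filter out of 31, 3 were higher and 2 lower in WT against Luc. Among all genes the shares were 3.36% and 3.34%. The median of the list was −0.011. KLF6, a zinc finger factor known to activate CDKN1A, had FPKM values of 33.3 in Luc and 83.9 in WT, with 44.2 in 3NQ and 35.5 in the ΔTM-labelled library, with a log2 ratio of 1.31 in WT against Luc. It was also higher in WT than in 3NQ (0.91) and in the ΔTM-labelled library (1.22). ETS1 rose by 0.66 in WT and 0.59 in 3NQ, and ID1 by 0.61 in WT. MYC, a repressor of CDKN1A, was at 72.3, 99.6, 91.8 and 79.4. EZH2, the Polycomb enzyme known to silence CDKN2A, was lower in WT, at −0.75 (43.8 to 25.7). FOXO4 was lower in 3NQ (−0.61), and FOXO1 was at 359 in Luc and at 1.28 to 1.41 in the other libraries.

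Downstream of the inhibitors, 2 of 15 RB and E2F genes passing the filter, of 17, were lower in WT against Luc, E2F1 (−0.83) and E2F2 (−0.72). None was higher, beside 3.34% of all genes lower and 3.36% higher. E2F1 was at 34.7 in Luc and 19.1 in WT, with 25.5 in 3NQ and 33.4 in the ΔTM-labelled library, and was also lower in WT than in that library (−0.78). RB1 was at 21.5, 22.8, 19.8 and 19.7. All 18 genes of the G1/S list were below 0 in WT, with a median of −0.41, though E2F1 alone was called. Of all genes, 50.9% were below Luc in WT. CDC6, a replication licensing factor, was lower in WT against 3NQ (−0.71).

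CDKN3 had ratios close to the median of the mitotic genes, and CDKN2C had lower ones. The 20 G2/M genes had a median log2 ratio to Luc of −0.56 in WT and −0.34 in 3NQ, and −0.17 in the ΔTM-labelled library, beside −0.61, −0.39 and −0.11 for CDKN3 and −0.92, −0.56 and −0.30 for CDKN2C. All 20 were below 0 in WT and 9 were called lower, namely CCNB2, BUB1, BUB1B, TOP2A, HMMR, CDC25C, KIF20A, NEK2 and CCNF, and none was higher. Of all genes, 50.9% were below Luc in WT and 3.34% were called lower. In 3NQ all 20 were again below 0 and 2 were called lower, HMMR (−0.63) and CENPE (−0.59), beside 57% and 2.57% of all genes. CENPE was also the gene of the list called lower in 3NQ against the ΔTM-labelled library, beside 1.88% of all genes. TOP2A (−0.65) and CCNF (−0.59) were lower in WT against that library, beside 2.91% of all genes. Several genes stand in more than 1 of these lists, and whether the share of cycling cells differed between the libraries was not tested.

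**Figure D4:**
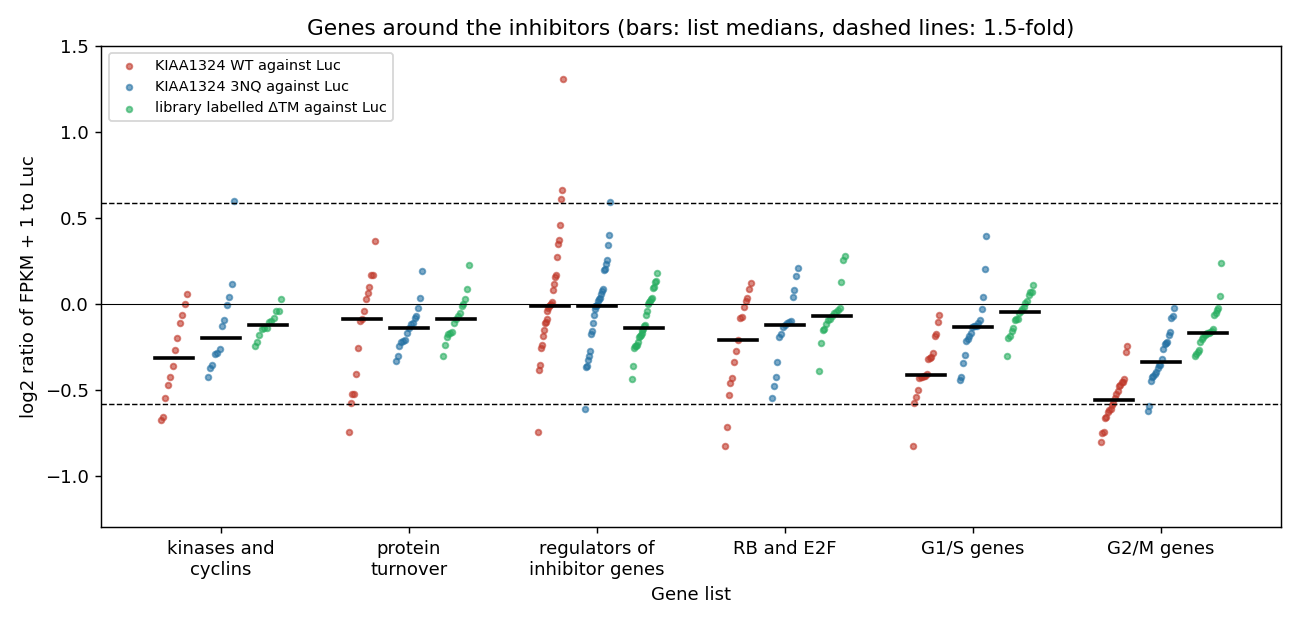
Log2 ratios of FPKM + 1 to Luc for genes of 6 lists of partners, regulators and cell cycle genes, 1 point a gene, in WT, 3NQ and the ΔTM-labelled library, with the list medians and lines at 1.5-fold. The G2/M points lie below 0 in WT with a median of −0.56, the regulators straddle 0, and FOXO1, near −7.22 to −7.30, lies outside the axis.

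The genes nearest to each changed inhibitor were sought by the distance over the 3 log2 ratios to Luc among the 7768 genes that reached an FPKM of 10 in any library, as a description over 4 libraries. For CDKN1A they were HECTD3 (distance 0.079), OPTN (0.086), TNFAIP3 (0.089), C12orf23 (0.11) and YIF1A (0.11). TNFAIP3, an inducible inhibitor of NF-kappa B signalling, was at 33.4, 57.8, 38.3 and 34.0 in the order of libraries used above. For CDKN2C they were NDC80 (0.092), KRT8 (0.14), SPC24 (0.15), METTL7A (0.16) and GJA5 (0.18). NDC80 and SPC24 encode subunits of the same kinetochore complex, and the NDC80 FPKM was 42.9, 22.8, 28.9 and 32.6. For CDKN3 they were LAMB1 (0.059), NR1H3 (0.060), KIFC1 (0.069), ACAT2 (0.069) and FANCD2 (0.072), of which KIFC1 is a mitotic kinesin and FANCD2 a DNA repair protein.

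KRT8, the epithelial keratin in the neighbourhood of CDKN2C, was at 8501 in Luc and 4510 in WT, with 6362 in 3NQ and 6912 in the ΔTM-labelled library. KRT8 and its partner KRT18 were the epithelial markers, of 6, called lower in WT, against Luc (−0.91 and −0.80) and against the ΔTM-labelled library. Of all genes, 3.34% were lower in WT against Luc and 2.91% in WT against the ΔTM-labelled library. EPCAM was at −0.17 in WT against Luc. The part of the KRT8 and KRT18 change in the inhibitor values was not tested.

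Some of these levels have an uncertain source. The sources used here do not state that strand was used in the counting, and on GRCh37 an lncRNA of the opposite strand covers 20.4% of the 3018 exon bases of CDKN2C, while CDKN2B-AS1 covers 15.3% of the 3885 exon bases of CDKN2A and DINOL 4.87% of those of CDKN1A. No such overlap was found for CDKN1B, CDKN1C, CDKN2B, CDKN2D or CDKN3. These overlaps are from GENCODE and not from the Ensembl annotation that the authors used. The authors also masked non-coding regions, and whether the mask took in these stretches is not known here. Words of 50 bases were shared between the transcripts of only 1 of the 28 pairs of members, CDKN2A and CDKN2B, and made up 0.755% and 0.776% of their words.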

How the data were processed

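Poly(A) RNA of 4 MKN28 lines was sequenced as 1 library each (TruSeq, HiSeq2500). The authors filtered reads on undetermined and low-quality bases, aligned them with TopHat to GRCh37 and let Cufflinks 2.1.1 estimate gene FPKM, with non-coding regions masked and corrections for reads of several origins and for fragment bias. The deposited FPKM are thus scaled by the authors for library size and length, and give no counts. Log2 ratios of FPKM + 1 were taken for genes that reached an FPKM of 1 in any library (Python 3.11.15, pandas 2.3.3, numpy 2.4.6). A gene was called at 1.5-fold. The authors tested for changed genes with Cuffdiff. No test was made here, with 1 library a group and no counts. The calling code was run on simulated data with 200 changed genes, with the size of change and the noise set in advance. That run checks the code only, and not how reliable the calls here are. The named genes were KIAA1324, the 8 inhibitors, genes of the lists past the threshold or needed for a member's role, the listed neighbours on each chromosome, and the nearest patterns. CDKN1B, MYC and other genes given below the threshold were named for their role. A regulator among the lists and the list of its targets are not reported here. The members and lists were chosen with earlier results of these data known. Promoter windows came from RefSeq (GRCh38.p14) and exons from GENCODE on GRCh37, and no coordinates were converted. Figures were drawn with matplotlib 3.10.9.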

Additional observations from a re-analysis of the deposited data

How the results depend on the processing

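The alternatives were pseudocounts of 0.1 and 5, rescaling by the upper quartile or by the median of ratios, a 2-fold threshold, no filter or an FPKM of at least 5, and the mean of 3NQ and the ΔTM-labelled library as the control of WT. Of 175 alternative values of the 42 log2 ratios of inhibitor genes, 4 lost the call, 4 gained it and 167 stayed on their side of the threshold. Of these 167, 1 changed sign, that of CDKN1B in WT, which was not called and was at 0.058 with the mutants' mean as the control. Those that lost the call were CDKN2C in WT with that control (−0.49) and in WT against the ΔTM-labelled library with a pseudocount of 5 (−0.41), and CDKN3 in WT with that control (−0.36) and in WT against Luc with a pseudocount of 5 (−0.55). With a pseudocount of 0.1, CDKN1C passed the threshold in WT against Luc (0.60) and against 3NQ (0.67), and in 3NQ against Luc CDKN2C (−0.62) and CDKN2D (−0.65) did. CDKN1A in WT against Luc ranged from 0.69 to 0.78.

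Of 84 counts under the alternatives, 9 moved by over 1.5 times. With a pseudocount of 0.1 the members higher in WT against Luc numbered 2, those higher in WT against 3NQ 1, and those lower in 3NQ against Luc 2. With a pseudocount of 5, 1 member was lower in WT against Luc and 0 in WT against the ΔTM-labelled library. At 2-fold, 0 members were higher and 0 lower in WT against Luc, and 0 and 0 in WT against the ΔTM-labelled library. The shares of all genes called with these pseudocounts or at 2-fold were not computed. These member counts therefore have no background to be read against. In the search for similar patterns with an FPKM of at least 5 (9386 genes), 4, 5 and 4 of the 5 genes named for CDKN1A, CDKN2C and CDKN3 remained, with NPRL2 and KCNAB2 entering.

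No inhibitor symbol was repeated in the table, so summing repeated entries gave no value. No replicate was left out with 1 library a group. No paired analysis was possible because each group had 1 library and no test was made. Depth is unknown, so the precision of the low values, such as CDKN1C, is not known.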

Other observations

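Of 28 listed neighbours, up to the second on each side of each inhibitor and no inhibitors themselves, 19 passed the filter, and in WT against Luc 0 were higher and 3 were lower, beside 3.36% and 3.34% of all genes. In 3NQ 1 was higher and 3 were lower, beside 1.77% and 2.57%, and in the ΔTM-labelled library 0 were higher and 1 was lower, beside 1.54% and 1.57%. Beside CDKN1A, SRSF3 had FPKM values of 238 in Luc and 221 in WT, with 245 in 3NQ and 260 in the ΔTM-labelled library, and STK38 was at 27.3, 28.1, 26.2 and 25.0. Beside CDKN2C, FAF1 was at 43.8, 42.6, 46.7 and 47.3, and beside CDKN3, CNIH was at 166, 158, 175 and 162. None of these 4 neighbours passed the threshold in WT against Luc.

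Beside CDKN1B, which was not called, both GPR19 (−0.63) and APOLD1 (−0.61) were lower in WT than in Luc, from an FPKM of 4.04 to 2.25 and of 2.36 to 1.21. BMP4, next to CDKN3, was at 4.21, 2.53, 2.21 and 3.52, lower in 3NQ (−0.70) and at −0.56 in WT. KCNQ1, whose locus shares an imprinted domain with CDKN1C, was higher in 3NQ, at 3.08 against 1.17 in Luc. For CDKN1C the highest library, WT, was fixed by the filter.

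At the INK4 locus on chromosome 9, an entry of the plus strand (chr9:21802635-22032985) spans CDKN2A and CDKN2B on the opposite strand. Its FPKM was 4.84 in Luc and 2.71 in WT, with 1.05 in 3NQ and 2.70 in the ΔTM-labelled library, so it was called lower than Luc in all 3, most in 3NQ (−1.51). CDKN2A had its lowest value in WT and not in 3NQ. Reads of the overlapping stretches cannot be told apart without strand.

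FOXO1, which is known to activate CDKN1B and CDKN1A, was listed at an FPKM of 359 in the Luc library and at 1.41, 1.34 and 1.28 in WT, 3NQ and the ΔTM-labelled library. CDKN1B was at 38.0 in that Luc library and at 29.8 to 34.4 in the others. CDKN1A was at 48.8 in Luc, below its 83.6 in WT and 56.4 in 3NQ, and at 46.6 in the ΔTM-labelled library. The FOXO1 value sets Luc apart from the other 3 libraries for FOXO1, and its source was not tested.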
